A study of Mus musculus with 241 samples.

Results

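Adaptor-free CD25 cells are thymic progenitors that carried transcripts of Il2ra, which encodes the CD25 chain of the interleukin-2 receptor, but none of Bcl11b and none of the ITAM adaptor genes Fcer1g and Tyrobp. They were chosen by transcript counts in both droplet (10x) libraries. A cell had to have at least 1 Il2ra UMI (a unique molecular identifier, counted once per captured mRNA molecule), 0 Bcl11b UMIs, a sum of Cd3d, Cd3e and Cd3g under 3 UMIs, and 0 UMIs of Fcer1g and Tyrobp together. Among 13312 cells in which 1000 or more genes were detected and mitochondrial UMIs stayed below 10%, 228 met the rule. They were 57 of 4878 cells in library 1 (1.17%) and 2.03% of 8434 cells in library 2. The choice rests on measured values, so the levels of these 7 genes below are a description and were not tested.

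The study profiled early T-cell precursors of mouse thymus. Both droplet libraries came from wild-type C57BL/6 mice and from live, lineage-negative cells with surface CD44 and Kit, with no gate on CD25. The earliest T-cell progenitors of the thymus (ETPs) lack surface CD25, and the stage that follows, DN2a, carries it. The labels do not say how many mice gave cells or whether the libraries came from different mice. The p-values below therefore do not speak for mice. They rest on UMI counting error and on how far class differences varied between the 2 libraries, whether technical or biological. The estimate of this spread is partly shared across genes. A small standard error can thus go with libraries that disagree, as for Thy1 below. Sorted bulk populations of the same strain with a reporter at the Bcl11b locus (genotype Bcl11byfp/yfp) gave values for the same genes in other samples. These were CD25- ETPs sorted as Flt3+ (2 libraries), as Flt3- (2 libraries) or undivided (2 libraries), and CD25+ DN2a cells without (3 libraries) or with (3 libraries) the YFP reporter. Full-length libraries of single wild-type cells from the ungated CD44+ Kit+ population, made on a C1 chip, gave a further count.

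T-cell precursors enter the thymus with progenitor programs still active and switch on T-cell genes under Notch signals. Surface CD25 marks the DN2a stage, and expression of Bcl11b, a zinc-finger factor, marks commitment to the T lineage. Fcer1g and Tyrobp encode small membrane proteins whose cytoplasmic ITAM motifs pass on signals from activating receptors of myeloid and natural killer cells, and early thymic progenitors are known to carry such transcripts before commitment.

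The libraries held 43734920 and 55522900 UMIs over 5006 and 8867 barcodes. Of these barcodes, 57 occurred in both libraries, and none was an adaptor-free CD25 cell in both. The adaptor-free CD25 cells had medians of 8084 and 6131 UMIs. CD25 cells that met the rule but had at least 1 adaptor UMI (adaptor-positive CD25 cells, 1369 and 1859 cells) had 8578 and 6641 UMIs. Cells with neither an Il2ra nor a Bcl11b UMI (CD25-transcript-negative cells, 2078 and 3919) had 8194 and 5738 UMIs. Cells with both an Il2ra and a Bcl11b UMI and a Cd3 sum under 3 (Bcl11b-positive CD25 cells, 803 and 1251) had 9825 and 7378 UMIs. In each library the adaptor-free cells were thus slightly shallower than the other CD25 cells.

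The rule divided a continuous range. Among CD25 cells before Bcl11b, the adaptor-free cells made up 3.997% in library 1 (57 of 1426 cells, exact binomial 95% interval 3.04 to 5.15) and 8.42% of 2030 cells in library 2 (7.25 to 9.72). These intervals cover counting error only. Just outside the rule lay cells with a single adaptor UMI, 5.68% and 10.7% of the same cells, and the adaptor-positive cells had means of 5.88 and 4.76 adaptor UMIs. At the other limits, 24 and 77 adaptor-free cells were admitted by 1 Il2ra UMI, and 89.5% and 94.7% of them had no Cd3 UMI at all. A further 18 and 52 cells met the rest of the rule but had a Cd3 sum of 3 or more.

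**Figure D1:**
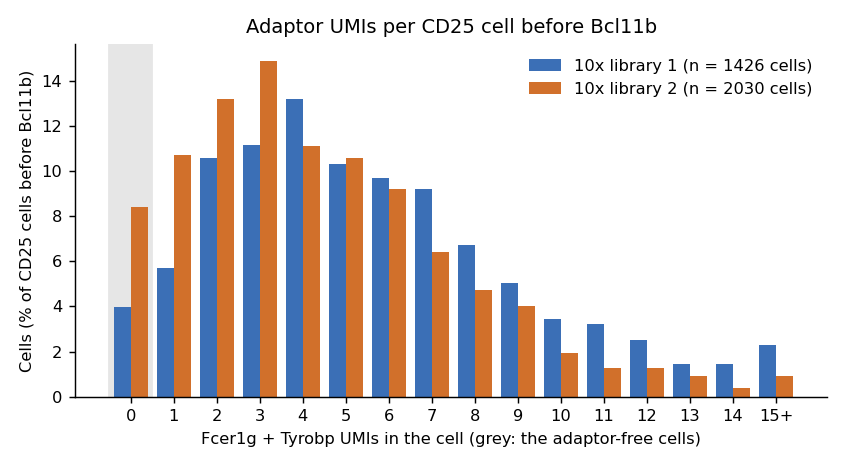
Share of CD25 cells before Bcl11b (y axis, percent of cells) by the number of Fcer1g and Tyrobp UMIs in the cell (x axis, the last bar for 15 or more), for the 2 droplet libraries. The grey band marks the adaptor-free cells, 3.997% and 8.42%, at the low end of a single-peaked distribution.

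Absence of a UMI is not absence of the transcript. When every cell was thinned at random to 4000 UMIs and the rule applied again, 200 and 338 cells met it. Of these, 68% and 53.3% carried adaptor UMIs at full depth, and 21.5% and 31.7% belonged to the adaptor-free CD25 cells. The full-length C1 cells, taken without a Cd3 limit, gave a lower share. Its interval at 1 FPKM, given next, contains the 3.997% of library 1. At a detection limit of 1 FPKM, 1 of 94 C1 cells with Il2ra and without Bcl11b had neither adaptor (1.06%, exact binomial 95% interval 0.0269 to 5.79), and at 10 FPKM 3 cells (2.78%) had neither. In the single cell, Scin was at 82.1 FPKM and Mpo at 551 FPKM, and Fgf3, Hbb-bt and Il7r were listed at 0. These C1 cells were too few for any comparison.

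The markers of the CD25 stage before Bcl11b were set beside the label. Il2ra, at 327.5 and 393 counts per 1000000 UMIs (CPM) in the summed adaptor-free cells, was part of the rule. It lies on chromosome 2 (11642792 to 11693194, GRCm38.p6, RefSeq), and Bcl11b, whose level was fixed at 0, on chromosome 12. Fgf3 (a secreted fibroblast growth factor), Scin (the actin-severing protein scinderin) and Hbb-bt (an adult beta-globin) were chosen with results of these data known and carry no independent weight. Each was detected in a minority of cells. After thinning to 4000 UMIs, which 54 cells of library 1 and 78.9% of those of library 2 could supply, Fgf3 was detected in 16.7% and 23.7% of cells, Scin in 24.1% and 28.1% and Hbb-bt in 35.2% and 32.6%. The same shares in CD25-transcript-negative cells were 3.71% and 5.57%, 16.3% and 14.95%, and 20.5% and 15.3%. In granulocyte-transcript cells of the same droplets (at least 3 UMIs of Elane, S100a8 and S100a9, 21 and 19 cells after thinning), Fgf3 was detected in 1 and 0 cells, Scin in 0 and 0, and Hbb-bt in 1 and 0. Their median depth, 16285 and 11056 UMIs, was above that of the adaptor-free cells. None of the 3 markers was detected in 40.7% and 42.2% of the adaptor-free cells.

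The adaptor-free CD25 cells were compared first with the CD25-transcript-negative cells. UMIs were summed per library and class and fitted with edgeR's quasi-likelihood test, with the library as a block, over 4 classes. Of 11583 genes tested, 949 (8.19%) were called at an adjusted p under 0.05. Of these, 420 were higher in the adaptor-free cells (3.63%) and 529 lower (4.57%), and 926 had the same sign in both libraries. Without the library as a block 1.14% were called, and 26 of the 58 called genes named by size and list membership lost their call. Among the gene lists, 10 of 11 DN2a genes, 5 of 14 T-lineage regulators and 6 of 15 STAT5 pathway genes were higher in the adaptor-free cells. Lower were 10 of 19 progenitor regulators, 9 of 15 progenitor surface molecules and 8 of 12 myeloid and granulocyte genes. The median log2 difference over all genes was -0.04. Each sum of adaptor-free cells rests on few cells, whose differences from one another enter the error only through the spread between the sums.

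Fgf3 held 24 UMIs (50.7 CPM) and 86 UMIs (78.4 CPM) in the adaptor-free cells of libraries 1 and 2, against 8.71 and 16.6 CPM in the CD25-transcript-negative cells. Both libraries were higher than either CD25-transcript-negative sum, and the log2 difference was 2.32 ± 0.18 (SE, 2 libraries, edgeR adjusted p = 2.37e-34). Scin was at 101.4 and 88.5 CPM against 40.4 and 46.1 CPM, a log2 difference of 1.00 ± 0.14 (adjusted p = 9.37e-11). Its groups did not overlap either. Here and below, the share of all genes without overlap between sums was not counted. Hbb-bt was at 691 and 495 CPM against 292.5 and 183.3 CPM, a log2 difference of 1.29 ± 0.07 (adjusted p = 5.05e-78). In library 1, however, 1 cell held 43.4% of the 327 Hbb-bt UMIs, and without it the level was 396 CPM.

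Il7r, the receptor chain for interleukin-7, was at 48.6 and 56.5 CPM in the adaptor-free cells and at 13.9 and 18.3 CPM in CD25-transcript-negative cells, a log2 difference of 1.65 ± 0.19 (adjusted p = 4.32e-15). Of the 11 genes listed for entry into DN2a, 10 were higher and 1, Hbb-bs, was not called. Their median log2 difference was 1.07. This list was also chosen with results of these data known. Besides the markers and Il7r it held Dpp4, encoding a surface peptidase (1.17 ± 0.14), the fucosyltransferase gene Fut8 (1.07 ± 0.11), the mitochondrial aldehyde dehydrogenase gene Aldh1b1 (1.37 ± 0.23) and the integrin alpha 4 gene Itga4 (0.74 ± 0.09). Ly6d, a GPI-anchored surface protein of lymphoid progenitors, was at 254 and 319 CPM against 60.9 and 100.9 CPM (1.77 ± 0.09). The mast cell carboxypeptidase gene Cpa3 (1.07 ± 0.10) and the tetraspanin gene Tspan9 (1.05 ± 0.18) rose too. Tspan9 differed by 0.26 in library 1 and by 1.22 in library 2.

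Of 14 T-lineage regulators, 5 were higher and Sox13 was lower. Tcf7, encoding the Notch-induced factor TCF-1, was at 166.9 and 230.7 CPM against 108.3 and 127.04 CPM, a log2 difference of 0.74 ± 0.09 (edgeR adjusted p = 9.29e-13). Myb (0.49 ± 0.09), Ikzf2, encoding Helios (0.53 ± 0.12), and Runx1 (0.42 ± 0.13) rose with Ets1. Gata3, required for T-cell specification, was at 50.7 and 51.1 CPM against 34.6 and 37.6 CPM and was not called (0.43 ± 0.17, adjusted p = 0.111). Tcf7 was the only called gene of 9 in the Notch response list.

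The list for signalling by the T-cell receptor had 19 tested members, of which 3 were higher, 2 lower and 14 not called. Lat, an adaptor protein of the receptor, rose by 0.98 ± 0.11, and Lck, its proximal kinase, by 0.46 ± 0.07. Thy1, the Thy-1 surface antigen, was at 23.2 CPM in library 1 and 71.1 CPM in library 2, against 13.3 and 22.4 CPM. Its log2 difference of 1.53 ± 0.19 thus came mostly from library 2 (1.63, against 0.70 in library 1). Dntt, encoding the terminal transferase of receptor gene assembly, was lower (-1.05 ± 0.08), and so was the costimulatory receptor gene Cd27 (-0.68 ± 0.09). Of 15 genes of the STAT5 pathway, which acts below the interleukin-7 receptor, 6 were higher and none lower, with a median log2 difference of 0.56. They were the kinase gene Pim1 (0.66 ± 0.07), the cyclin gene Ccnd3 (0.77 ± 0.10), Stat5a (0.80 ± 0.19), Stat5b, the feedback inhibitor gene Socs2 and the survival gene Bcl2 (0.75 ± 0.18, with 0.10 in library 1 and 0.99 in library 2).

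Of 19 progenitor regulators, 10 were lower and none higher, with a median log2 difference of -0.77. Lmo2, a bridging factor of blood progenitors, held 16 and 36 UMIs (33.8 and 32.8 CPM) in the adaptor-free cells, against 93.97 and 84.3 CPM, a log2 difference of -1.46 ± 0.17 (adjusted p = 5.46e-15). Mef2c (-1.33 ± 0.10) and Hhex (-0.60 ± 0.09) were lower as well. Hoxa9, a homeobox factor of progenitors, was also lower (-1.09 ± 0.17), by -0.47 in library 1 and -1.43 in library 2. Spi1, encoding the myeloid and progenitor factor PU.1, was at 88.8 and 76.6 CPM against 125.75 and 135.1 CPM (-0.77 ± 0.12). Among 15 progenitor surface molecules and cytokine receptors, 9 were lower. Cd34 was at 152.15 and 114.9 CPM against 267 and 303 CPM (-1.26 ± 0.10), and Cd7 at 38.04 and 30.1 CPM against 101.5 and 116.2 CPM (-1.83 ± 0.17). Egfl7 (-1.48 ± 0.10) and Flt3, the receptor of the earliest progenitors (-1.50 ± 0.29, 4 and 14 UMIs in the adaptor-free cells), were lower too. Kit, part of the sorting gate, differed by 0.18 in library 1 and -0.31 in library 2 and was not called (-0.15 ± 0.12, adjusted p = 0.575).

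**Figure D2:**
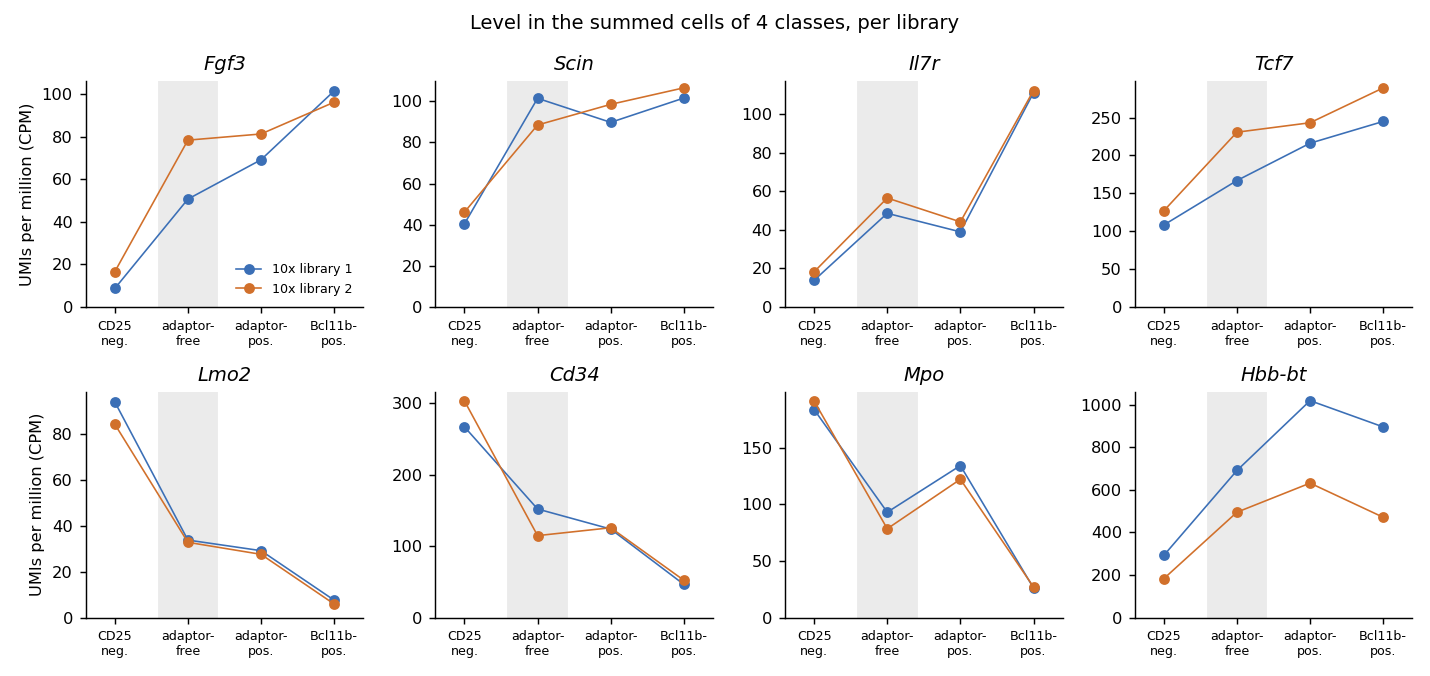
Level of 8 genes (y axes, CPM, starting at 0) in the summed cells of 4 classes, 1 line per droplet library, with the adaptor-free CD25 cells on grey. Fgf3, Scin, Il7r and Tcf7 were higher in the adaptor-free than in the CD25-transcript-negative cells in both libraries, and Lmo2, Cd34 and Mpo were lower.

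Other cell types in the gate were described by marker lists. Granulocyte-transcript cells nearly all carried adaptor UMIs, with means of 11.05 and 9.8 per cell, and 0% and 5% of them had none. The rule thus kept them out of the adaptor-free cells almost entirely and set part of the following falls in advance. Of 12 myeloid and granulocyte genes tested, 8 were lower in the adaptor-free cells. The summed level of all 18 genes of this list, tested or not, was 347 and 300 CPM against 703 and 668 CPM. Prtn3, a granule protease, held 0 and 1 UMI in the adaptor-free cells, against 1453 and 1316 UMIs (80.6 and 54.4 CPM) in CD25-transcript-negative cells. It lost its call against cells held to the same limits on adaptors and Cd3 (edgeR adjusted p = 0.112). Of the Prtn3 UMIs in the whole CD25-transcript-negative class, 76.8% and 80.2% came from 16 and 20 granulocyte-transcript cells. So did 98.8% and 98.3% of its Elane UMIs. Mpo, the myeloperoxidase gene, was spread more widely, with 21.4% and 11.7% of its UMIs in those cells. It was at 92.98 and 78.4 CPM in the adaptor-free cells against 183.4 and 190.9 CPM (-1.24 ± 0.12, and -1.03 with granulocyte-transcript cells left out). S100a8 was at 0 in the adaptor-free cells of both libraries. Summed B-cell genes reached 33.8 and 40.1 CPM against 39.3 and 45.7 CPM, and none of 4 tested was called.

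The globin transcript stood alone among erythroid genes. Hba-a1, Hba-a2, Alas2, Epor and Gata1 were at 0 UMIs in the adaptor-free cells of both libraries, Klf1 had 0 and 1 UMI, and Hbb-bs 1 and 0. These low counts were not particular to the adaptor-free cells. In the larger sums of the other classes, Alas2 was also at 0 and Hba-a1 and Hba-a2 held at most 1 UMI. Gata1 reached at most 1.26 CPM and Epor 0.22 CPM there. Hbb-bt and Hbb-bs are near-identical, and reads may be shared out between such copies.

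Of 18 interferon-stimulated genes, 6 were lower in the adaptor-free cells. Ifi203 (-0.85 ± 0.10) and Ifitm3 (-0.66 ± 0.09) were lower in both libraries. Ifi27l2a differed by -0.20 in library 1 and -1.53 in library 2, and Isg15 by 0.11 and -0.98, so the calls of these 2 rest on library 2.

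Cell-cycle genes were higher than in the CD25-transcript-negative cells as well. Of 24 DNA replication genes 9 were higher, among them E2f1 (0.84 ± 0.15), Pcna (0.44 ± 0.11) and Rrm2, a ribonucleotide reductase subunit (1.02 ± 0.14, with 0.15 in library 1 and 1.37 in library 2). Of 24 mitosis genes 3 were higher. These were Top2a, a topoisomerase (0.62 ± 0.08), Mki67, encoding the Ki-67 antigen (0.58 ± 0.14), and Birc5, encoding survivin (0.48 ± 0.12). The call of these 3 ended when the CD25-transcript-negative cells were held to the same limits on adaptors and Cd3, a comparison added after the values were seen. Against these cells, 8.52% and 15.8% of the class, Top2a differed by 0.11 (edgeR adjusted p = 0.603), Mki67 by -0.09 (adjusted p = 0.848) and Birc5 by -0.26 (adjusted p = 0.245). The stage genes moved the other way. Fgf3 differed by 3.17 (edgeR adjusted p = 3.48e-11), Hbb-bt by 2.70 (adjusted p = 6.44e-16), Scin by 2.05 (adjusted p = 1.34e-09) and Tcf7 by 1.52 (adjusted p = 5.54e-12), each by more than against the whole class. Mpo fell by 0.57 (adjusted p = 0.0139), less than against the whole class. Differences also grew for Ly6d (2.46), Dpp4 (1.76), Cpa3 (1.80), Itga4 (1.41) and Ikzf2 (1.13), and Cd7 differed by -1.21.

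The comparison with the adaptor-positive CD25 cells, which the rule separates by Fcer1g and Tyrobp alone, called 1.03% of 11583 genes, 70 of them higher in the adaptor-free cells (0.604%) and 49 lower (0.423%). With only the 2 classes in the fit 68 were higher and 77 lower, and with no filter on low counts 47 and 49, so the balance of directions turned. The genes called higher included 8 of 59 histone genes, 3 of 24 mitosis genes, Actb and Lgals1, and those called lower Cd7, Ccl5, Spi1, Mpo and Kit. Fgf3 (50.7 and 78.4 CPM against 69.2 and 81.3 CPM) and Scin (101.4 and 88.5 CPM against 89.7 and 98.5 CPM) were not called. Their log2 differences were -0.15 ± 0.14 (adjusted p = 0.787) and -0.06 ± 0.13 (adjusted p = 0.933), which does not show that the classes were alike. Hbb-bt was lower in the adaptor-free cells (691 and 495 CPM against 1019 and 632 CPM, -0.45 ± 0.06, adjusted p = 1.19e-10). It was the only called gene of the 11 DN2a genes, whose median log2 difference was 0.00. Without the library as a block, only 1 of these genes was called. When at least 2 Il2ra UMIs were required, 19 of the 30 called genes named in this way lost their call.

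Histone genes made up the 3 largest rises among called genes with the same sign in both libraries and a mean log2 CPM of at least 5. Hist1h4i was at 116.2 and 103.96 CPM in the adaptor-free cells against 56.5 and 52.04 CPM, a log2 difference of 1.00 ± 0.13 (edgeR adjusted p = 2.61e-11) that was 1.00 in each library alone. Hist1h2ap was at 234.6 and 114.9 CPM against 105.8 and 61.9 CPM (0.98 ± 0.11, adjusted p = 3.08e-15). Hist1h2bc was at 137.35 and 138.6 CPM against 70.8 and 70.98 CPM (0.93 ± 0.12, adjusted p = 1.45e-12). In each of these genes both libraries of adaptor-free cells lay above both of adaptor-positive cells.

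Of 59 histone cluster genes tested, a list made after their values were seen, 8 were higher and none lower, with a median log2 difference of 0.75. Besides the 3 above they were the linker histone genes Hist1h1b (0.87 ± 0.17) and Hist1h1c (1.13 ± 0.22), and Hist1h2bm, Hist1h2ak and Hist1h2bb. The summed level of all 69 histone cluster genes, tested or not, was 1143 and 866 CPM against 657 and 489 CPM. Several histone genes are near-identical, so single names are uncertain. Droplet libraries prime on poly(A), which most replication-dependent histone mRNAs lack. The 6 called genes with a single match lie on chromosome 13, and replication-dependent histone genes are known to share promoter elements. The 100 bases upstream of the RefSeq start (GRCm38.p6) are printed below for 3 of the 6 called genes with a single match, chosen for their matches, with TATAAA and CCAAT in capitals on either strand (CCAAT reads ATTGG on the other):
Hist1h1b, chr13:21780626-21780725, minus strand: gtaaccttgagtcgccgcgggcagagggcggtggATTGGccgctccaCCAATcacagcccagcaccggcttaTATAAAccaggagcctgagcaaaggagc
Hist1h2bb, chr13:23746634-23746733, plus strand: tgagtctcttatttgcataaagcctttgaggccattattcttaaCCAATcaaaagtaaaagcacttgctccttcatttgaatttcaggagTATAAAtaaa
Hist1h2ak, chr13:21753913-21754012, minus strand: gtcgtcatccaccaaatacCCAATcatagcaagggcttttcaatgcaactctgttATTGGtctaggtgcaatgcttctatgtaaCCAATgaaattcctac
Within 250 bases upstream, 5 of the 6 genes held CCAAT and 3 held TATAAA on either strand, against 33.9% and 12.4% of 32851 RefSeq promoters. These matches are a description of the letters.

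Mitosis genes followed the histones. Top2a was at 378 and 296 CPM in the adaptor-free cells against 236.8 and 205.65 CPM, a log2 difference of 0.57 ± 0.08 (edgeR adjusted p = 2.11e-10). Mki67 was at 73.96 and 83.9 CPM against 54.1 and 48.2 CPM (0.69 ± 0.14), and Birc5 at 114.1 and 113.99 CPM against 86.3 and 74.96 CPM (0.52 ± 0.12). These 3 of 24 mitosis genes were called. All 24 had a positive log2 difference, from 0.06 to 0.89, with a median of 0.51 against -0.02 over all genes. The centromere gene Apitd1 (0.65 ± 0.16), the spindle gene Nusap1 (0.65 ± 0.17) and the condensin gene Smc2 (0.61 ± 0.13) rose too. Of 24 replication genes only Rrm2 was called (0.63 ± 0.14), and it differed by -0.13 in library 1 and 0.88 in library 2.

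Counted per cell at 4000 UMIs, the adaptor-free CD25 cells held means of 4.33 and 4.05 mitosis UMIs against 2.67 and 2.58 in the adaptor-positive cells. The medians were 1 and 2 UMIs against 1 and 1, so the means rested on a minority. Cells with at least 5 mitosis UMIs made up 31.5% and 33.3% of adaptor-free cells against 19.04% and 18.8%. Histone UMIs had means of 4.30 and 3.38 against 2.12 and 1.71.

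The same step with the adaptors was seen before CD25. CD25-transcript-negative cells without adaptor UMIs held 4.89 and 4.79 mitosis UMIs per cell, and those with adaptor UMIs 2.49 and 2.61. Their histone UMIs stepped the same way, with means of 3.598 and 2.784 without adaptor UMIs against 1.982 and 1.752 with them. The histone step was thus not particular to the adaptor-free CD25 cells. Among Bcl11b-positive CD25 cells the mitosis values were 3.85 and 3.31 without adaptor UMIs and 3.79 and 3.11 with them. The histone values there were 3.481 and 2.20 against 2.90 and 2.04. Before CD25, cells without adaptor UMIs were the deeper ones, with medians of 8943 and 6065 UMIs against 8139 and 5712. Among Bcl11b-positive cells they were the shallower ones, with 8916.5 and 6695 UMIs against 10030 and 7696.5. The counts per cell above were taken at 4000 UMIs in every class, and any further part of depth was not tested. DNA replication UMIs showed a smaller step, 7.72 and 8.55 per adaptor-free CD25 cell against 6.94 and 7.06. In the summed cells, Hist1h1b and Hist1h2ap were each higher by 1.05 (log2) than in the whole CD25-transcript-negative class. Against such cells held to the same limits on adaptors and Cd3, Hist1h1b differed by 0.43 and lost its call (edgeR adjusted p = 0.199). Hist1h2ap differed there by 0.47 and kept its call (edgeR adjusted p = 0.0133).

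**Figure D3:**
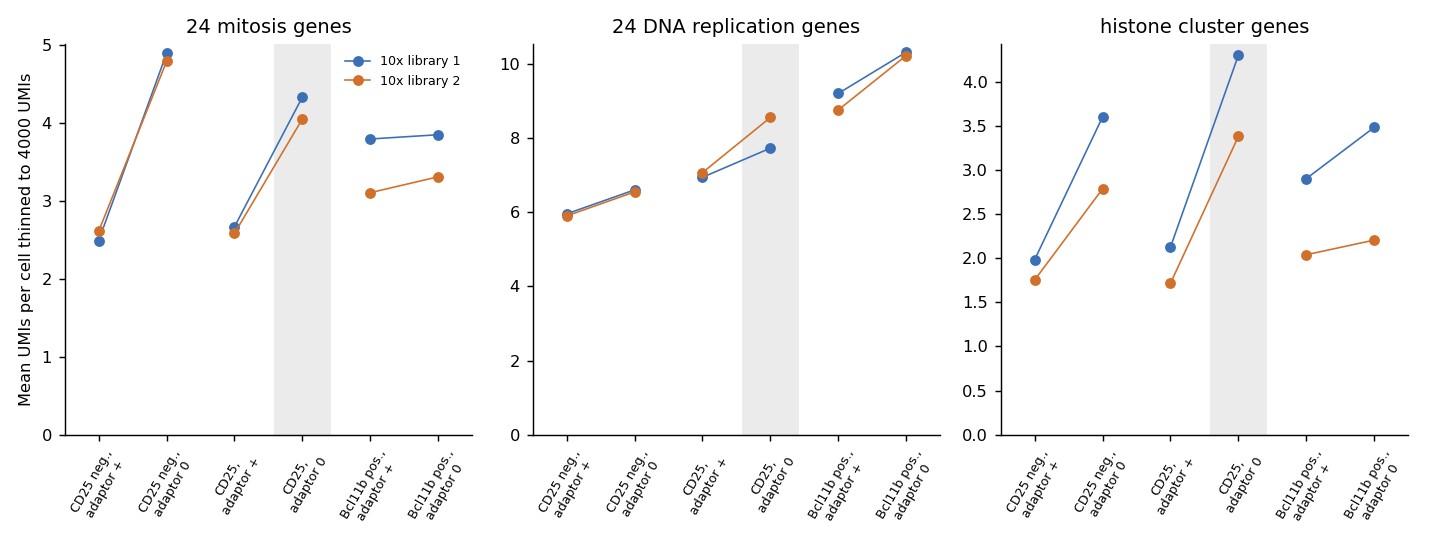
Mean UMIs per cell of mitosis, DNA replication and histone cluster genes (y axes, cells thinned to 4000 UMIs), in cells with and without adaptor UMIs of 3 stages, 1 colour per droplet library. The adaptor-free CD25 cells, on grey, held 4.33 and 4.05 mitosis UMIs against 2.67 and 2.58 in adaptor-positive CD25 cells, and a step in the same direction was present in CD25-transcript-negative cells.

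Actb, encoding beta-actin, was at 3466 and 4845 CPM in the adaptor-free cells against 2476 and 3380 CPM, a log2 difference of 0.49 ± 0.04 (edgeR adjusted p = 2.70e-26). It was also higher than in CD25-transcript-negative cells (0.47 ± 0.04) and Bcl11b-positive CD25 cells (0.42 ± 0.04). Lgals1, encoding galectin-1, was at 382 and 343 CPM against 262.3 and 217.2 CPM (0.59 ± 0.08). Ccnd3 (0.36 ± 0.10) and Lat (0.38 ± 0.10) were the remaining rises named among listed genes, besides Thy1. Thy1 was at 23.2 CPM in library 1 and 71.1 CPM in library 2, against 23.9 and 24.3 CPM. Its difference of 1.18 ± 0.18 was present in library 2 alone (1.55, against -0.08).

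Among the falls, Ccl5, a chemokine of killer lymphocytes, was at 33.8 and 41.04 CPM in the adaptor-free cells against 72.3 and 108.3 CPM, a log2 difference of -1.33 ± 0.16 (edgeR adjusted p = 7.88e-13). Cd7, a surface protein of early lymphoid and killer cells, was at 38.04 and 30.1 CPM against 76.6 and 74.5 CPM (-1.25 ± 0.18, adjusted p = 3.38e-09). Both genes were lower in both libraries with no overlap. Of the 7 adaptor partner genes tested, 2 were lower. Lst1, a small myeloid membrane protein, was at 103.5 and 91.2 CPM against 162.6 and 132.2 CPM (-0.58 ± 0.12, adjusted p = 0.000296). Fcgr3, an Fc receptor that needs an ITAM adaptor for surface display, was called lower by -2.79 ± 0.72 (edgeR adjusted p = 0.0173). Its mean lay below a log2 CPM of 5, the limit for named genes, so the size of this fall is uncertain.

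Spi1 was at 88.8 and 76.6 CPM against 118.8 and 118.5 CPM (-0.58 ± 0.13, adjusted p = 0.00179). It was the only called gene of 19 progenitor regulators, whose median log2 difference was -0.14. Mpo was at 92.98 and 78.4 CPM against 134.1 and 122.02 CPM (-0.63 ± 0.12, adjusted p = 0.000187). Kit (-0.43 ± 0.12, adjusted p = 0.0356, with -0.12 in library 1 and -0.59 in library 2) and Runx3 (-0.40 ± 0.11, adjusted p = 0.0496) were close to the threshold. The nuclease gene Samhd1 (-0.98 ± 0.23), the receptor gene Ffar2 (-0.71 ± 0.19), the transferrin gene Trf (-0.69 ± 0.18), Mdp1 (-0.77 ± 0.21) and Gtf3c6 (-0.70 ± 0.20) were lower too, Gtf3c6 by -0.19 in library 1. Prtn3, with 0 and 1 UMI against 357 and 49 UMIs, lost its call when granulocyte-transcript cells were left out (adjusted p = 0.101).

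**Figure D4:**
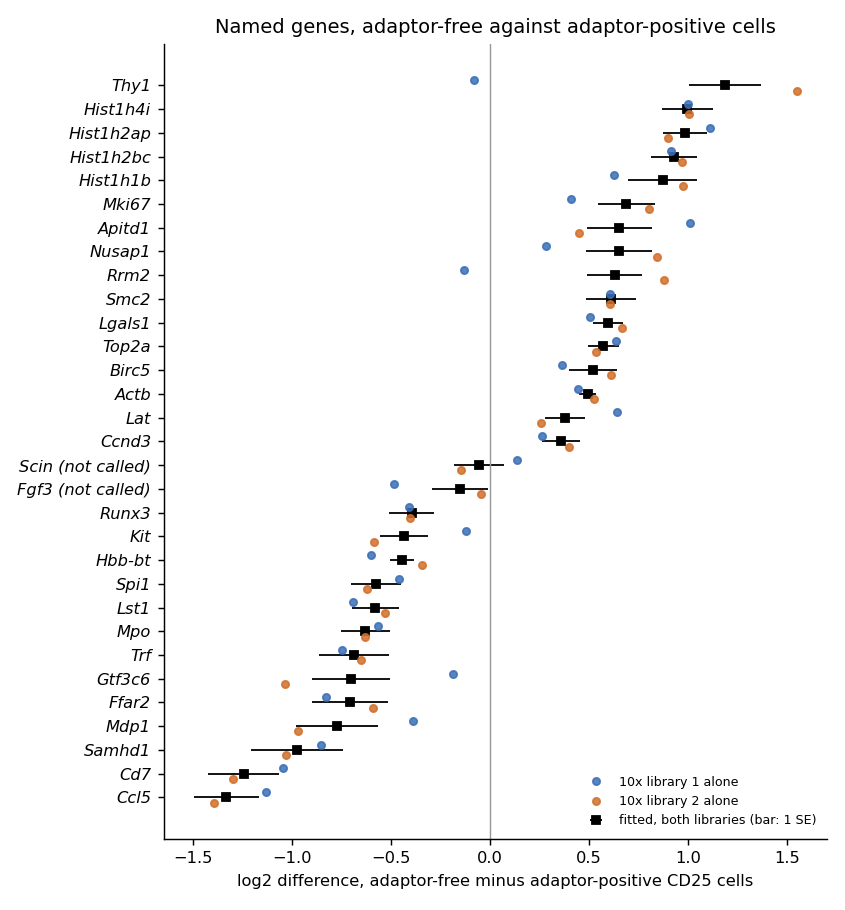
Log2 difference between adaptor-free and adaptor-positive CD25 cells (x axis) for the named genes other than Prtn3. Squares with bars are fitted values with 1 standard error and circles are the 2 libraries alone; Thy1 and Rrm2 had opposite signs in the libraries, at -0.08 and 1.55 and at -0.13 and 0.88.

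Against the Bcl11b-positive CD25 cells, 1.71% of 11583 genes were called, 0.803% higher in the adaptor-free cells and 0.907% lower, and 0.276% without the library as a block. Here 6 of 19 progenitor regulators were higher and none lower, and 6 of 14 T-lineage regulators were lower and none higher. Lmo2 was at 33.8 and 32.8 CPM against 7.64 and 5.96 CPM, a log2 difference of 2.33 ± 0.27 (edgeR adjusted p = 1.06e-14). Mpo was at 92.98 and 78.4 CPM against 26.2 and 27.1 CPM (1.65 ± 0.16, adjusted p = 6.41e-21), and Cd34 at 152.15 and 114.9 CPM against 46.7 and 52.4 CPM (1.34 ± 0.13). Mef2c (1.03 ± 0.14), Hhex (0.72 ± 0.11), Hoxa9 (1.29 ± 0.23), Egfl7 (0.92 ± 0.14) and the carbonic anhydrase gene Car2 (1.55 ± 0.17) were higher. So were Cd82, a tetraspanin (1.58 ± 0.24), Evl, an actin regulator (1.42 ± 0.26), Serpina3g (1.35 ± 0.17), Slco3a1 (1.33 ± 0.23) and Nrarp, a Notch feedback gene (0.79 ± 0.22). Against Bcl11b-positive cells held to 0 adaptor UMIs the difference was 3.35 for Lmo2, 3.61 for Mpo, 2.76 for Serpina3g and 1.65 for Mef2c. Of the 43 called genes named in this way, 28 lost their call when at least 2 Il2ra UMIs were required and 29 without the library as a block.

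Il7r was at 48.6 and 56.5 CPM against 111.1 and 112.3 CPM, a log2 difference of -1.06 ± 0.15 (edgeR adjusted p = 1.68e-10). The adaptor-free cells thus lay between the CD25-transcript-negative and the Bcl11b-positive cells for Il7r, with both differences called. Ly6d (-1.16 ± 0.07), Itga4 (-0.65 ± 0.08), Aldh1b1 (-0.81 ± 0.18), Fut8 (-0.39 ± 0.10) and Tcf7 (-0.37 ± 0.09) followed the same order, although Fut8 lost this call against Bcl11b-positive cells held to 0 adaptor UMIs (adjusted p = 0.0842). Gata3 was at 50.7 and 51.1 CPM against 82.2 and 77.5 CPM (-0.62 ± 0.16, adjusted p = 0.00675). Bcl2 (-0.96 ± 0.15), Myb (-0.36 ± 0.08), Ikzf2 (-0.47 ± 0.11), Lck (-0.35 ± 0.07), Lat (-0.51 ± 0.09), the adaptor protein gene Fyb (-1.12 ± 0.11), Anxa2, encoding annexin A2 (-1.20 ± 0.18), and the microRNA-processing gene Drosha (-1.06 ± 0.15) were lower. Drosha was lower by -2.10 in library 1 and by -0.80 in library 2. Fgf3 was called (-0.52 ± 0.14, adjusted p = 0.0114) but lost the call and its sign when the Bcl11b-positive cells were held to 0 adaptor UMIs (0.26, adjusted p = 0.618). No gene of 24 in mitosis or of 24 in replication was called by edgeR. Scin (-0.18 ± 0.13, adjusted p = 0.669) was not called. Hbb-bt (-0.13 ± 0.06, adjusted p = 0.425) was not called either. It was called higher in the adaptor-free cells, close to the threshold, when the Bcl11b-positive cells were held to 0 adaptor UMIs (0.40, edgeR adjusted p = 0.0469). In library 1, however, 1 cell held 43.4% of the Hbb-bt UMIs of the adaptor-free cells, and this test was not repeated without it.

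Progenitor and DN2a transcripts were found together in some of the adaptor-free CD25 cells. After thinning, 7 cells of library 1 and 25 of library 2 held UMIs of both Spi1 and Tcf7, out of 18 and 35 with Spi1 and 24 and 72 with Tcf7. Mpo and Fgf3 were found together in 2 and 7 cells, out of 15 and 32 with Mpo and 9 and 32 with Fgf3. Most cells with an Mpo UMI thus had no Fgf3 UMI at this depth, and neither did most adaptor-free cells as a whole. No joint count was set against the count that the single shares would give. These counts therefore do not tell whether the transcripts go together. Flt3 was found in 2 and 6 cells, of which 1 in each library held Tcf7.

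The sorted bulk populations gave the same genes in samples the rule did not use, although the sort did not separate cells by adaptors. In bulk values, fewer cells of a type and less RNA per cell cannot be told apart. The deposited values are FPKM, which are scaled to gene length, and were tested as log2(FPKM + 1) with limma. Reporter-negative DN2a cells were set against the mean of the 3 ETP populations, and 359 of 12112 genes were higher (2.96%) and 554 lower (4.57%). Fgf3 was at 47.8 to 75.2 FPKM in the 3 DN2a libraries and at 0.104 to 3.39 FPKM in the 6 ETP libraries, a log2 difference of 4.67 ± 0.19 (limma adjusted p = 2.96e-07). Scin was at 106.7 to 160.99 FPKM against 14.9 to 55.3 FPKM (2.04 ± 0.12), and Hbb-bt at 181.5 to 392 FPKM against 20.6 to 137.6 FPKM (2.87 ± 0.34). None of the 3 overlapped between the populations, and the share of all bulk genes without overlap was not counted. Lmo2 was at 5.21 to 7.97 FPKM against 28.8 to 69.4 FPKM (-2.43 ± 0.20) and Cd34 at 56.2 to 79.7 FPKM against 138.25 to 372 FPKM (-1.70 ± 0.14).

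The column names in the table's header begin with a library number or, for libraries made with the SMART-Seq kit, with a shared leading number. The first digits form 3 sets, each with ETP and DN2a libraries. The second set is the SMART-Seq libraries and the others were made with the NEBNext kit, so the sets contain the kit. The libraries of the first set stood apart. Cd3g, part of the T-cell receptor complex, was at 52.5 FPKM in its Flt3+ ETPs, 39.9 FPKM in its Flt3- ETPs and 19.8 FPKM in its reporter-negative DN2a cells. The other ETP libraries held 0.710 to 5.42 FPKM and the other reporter-negative DN2a libraries 0.801 and 4.77 FPKM. With that set left out, the log2 difference was 4.75 for Fgf3, 1.98 for Scin, 3.05 for Hbb-bt, -2.70 for Lmo2 and -1.79 for Cd34, each called. The number of called genes rose to 2069 without that set and to 1690 with the set as a term in place of the kit.

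Of the 402 genes higher in adaptor-free than in CD25-transcript-negative cells in both libraries, 385 were measured in bulk, and of these 22.9% were higher in the bulk DN2a cells and 0 lower. Of the 524 lower genes 502 were measured, of which 0 were higher and 32.9% lower. Over all genes these shares were 2.96% and 4.57%. Of 65 measured genes higher in the adaptor-free than in the adaptor-positive cells, 3 (4.62%) were higher and 1 (1.54%) lower in bulk DN2a cells. Of 46 measured genes lower in the adaptor-free cells, 9 (19.6%) were higher in bulk DN2a cells and 4 (8.70%) lower. Top2a (0.00 ± 0.17, limma adjusted p = 0.999), Hist1h4i (0.11 ± 0.14, adjusted p = 0.722) and Hist1h2ap (0.35 ± 0.32, adjusted p = 0.625) were not called in bulk. Ccl5 was higher in the bulk DN2a cells (1.10 ± 0.28, adjusted p = 0.0375), a different contrast from that between adaptor-free and adaptor-positive cells. In the droplets it was at 72.3 and 108.3 CPM in adaptor-positive CD25 cells and 33.8 and 41.04 CPM in adaptor-free cells. The CD25-transcript-negative cells held 33.2 and 52.7 CPM. Tyrobp was at 118.6 to 223.7 FPKM and Fcer1g at 27.4 to 93.7 FPKM in the DN2a bulk libraries, so the sorted population as a whole carried both adaptors.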

How the data were processed

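The authors' droplet matrices hold UMI counts from Cell Ranger 2.0 on mm10, per the submitters' processing notes. The bulk and C1 tables were deposited by the authors as FPKM, and STAR 2.4.0, RSEM 1.2.25 and HOMER are named in the notes. Bulk libraries were made with NEBNext Ultra or SMART-Seq v4, per the labels' protocols. No statement on doublets is given in the sources used here and no doublet caller was run. Leaving out the deepest 5% of cells stands in as an alternative.

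Barcodes with fewer than 1000 genes or 10% or more mitochondrial UMIs were dropped, which left 57 and 171 adaptor-free CD25 cells. UMIs were summed over 2 libraries and 4 classes, giving 8 sums, scaled by TMM, filtered with filterByExpr and tested with edgeR 4.0.16 in R 4.3.3, with class and library as terms. The 7 rule genes were left out of the tests. Calls used p-values adjusted by Benjamini-Hochberg across the 11583 genes, with a threshold of 0.05. Fold changes against a sum near 0 UMIs are not printed. Bulk log2(FPKM + 1) values of 12 libraries were tested with limma 3.58.1, with the kit as a term, on the 12112 genes above 1 FPKM in 2 or more libraries. Shares of cells used cells thinned to 4000 UMIs (seed 1), with exact binomial (Clopper-Pearson) 95% intervals. DESeq2 1.42.0 was an alternative, as were other scaling, filters, depth windows, rule limits and left-out cells or libraries.

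Named genes were the 12 largest rises and 12 largest falls against CD25-transcript-negative cells, and 8 of each in the other 2 comparisons, among called genes of the same sign in both libraries and a mean log2 CPM of at least 5. Markers, rule genes and up to 4 called members per list and direction, by smallest adjusted p, were added. Socs2, Stat5b, Ets1, Sox13, Fcgr3, Spi1 and Gata3 in comparisons where the rule did not name them, Flt3 and Notch-list, histone and erythroid genes below the level limit were chosen after their values were seen. The cells, markers and lists were chosen with earlier results of these data known. On sums simulated for the first comparison (11339 genes), the fit recovered 97% of the 100 genes changed by 1 (log2). Of the 100 changed by 0.5 it recovered 53%, and 5.06% of its calls were false. The changed genes were drawn above a level limit, and every gene had the same dispersion (0.001). No library effect and no uneven cells were simulated. These shares therefore do not carry over to weak genes, to genes on which the libraries disagree or to genes carried by single cells. Upstream sequences and gene positions are from RefSeq (GRCm38.p6). Computation also used Python 3.11.15, numpy 2.4.6, scipy 1.17.1, pandas 2.3.3 and matplotlib 3.10.9.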

Additional observations from a re-analysis of the deposited data

How the results depend on the processing

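Against CD25-transcript-negative cells 8.19% of tested genes were called. This share was 1.14% without the library as replicate block, 5.47% with only the 2 classes in the fit, 14.6% with cells thinned before the rule and 5.84% with comparison cells held to the same limits. Against adaptor-positive CD25 cells 1.03% were called, and 0.00863% (1 gene) without the replicate block, 0.546% with at least 2 Il2ra UMIs, 0.695% with a Cd3 sum of 0 and 6.09% with cells thinned before the rule. Of the 625 genes called after thinning 96 were also called at full depth. Against Bcl11b-positive CD25 cells 1.71% were called, 0.276% without the replicate block and 0.429% with at least 2 Il2ra UMIs. The droplet libraries are separate captures that share each class, so the library block stands in for the replicate number. In bulk, 913 genes were called, 130 without the kit term, 487 in NEBNext libraries only, and 495 to 1262 with 1 library left out (495 without Bcl11b-negative DN2a replicate 1 and 508 without replicate 3). With the replicate number as a block 2677 were called. Same-numbered bulk libraries correlated by -0.02 to 0.82 over 21 pairs, not all above 0.1, so the numbers were not taken as pairs. With the set of leading header numbers as a term in place of the kit 1690 were called, and 2069 with the first set left out. Both were chosen after seeing the data. The C1 count of cells meeting the rule moved from 1 to 3 at a limit of 10 FPKM.

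The cause of these changes was not tested. With DESeq2 the share of calls that were higher in the adaptor-free cells was 53.4% of 648 genes in the first comparison (44.3% in edgeR) and 57.5% in the third (46.97% in edgeR). Another size factor left these shares within 10 points. In the second comparison the share was 58.8%, and 46.9% with only the 2 classes in the fit and 48.96% with no filter on low counts. Signs turned for Mki67 (-0.088) and Birc5 (-0.26) against CD25-transcript-negative cells held to the same limits, and for Ccl5 (0.030) and Fgf3 (0.26) against Bcl11b-positive cells held so. With 1 library left out, Isg15 ranged from -0.98 to 0.11 in the first comparison, and Thy1 from -0.080 to 1.55 and Rrm2 from -0.13 to 0.88 in the second. Gtf3c6 was at 0.0054 there with cells thinned before the rule. Leaving out a droplet library leaves no residual degrees of freedom, so such values carry no test and no share of calls.

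The limits lie in the number of cells. Sums of 57 cells in library 1 and 2.03% of the cells of library 2 give wide errors for genes of few UMIs, and single cells weigh on some genes, as for Hbb-bt.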
